A study of Mus musculus with 22 samples.

Results

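The kainic acid response of the control dentate gyrus was read from 11 of the 22 arrays of the series, the 5 arrays of CTR mice given kainic acid (KA) and the 6 arrays of CTR mice given saline, over all 46237 probes of the Illumina MouseWG-6 v2.0 array. CTR mice were Srf f/f littermates, which carry loxP sites around Srf but no Cre recombinase. Like the mutants, they received tamoxifen as adults, so both the KA and the saline group share the flanked alleles and the drug. All were males. KA was injected intraperitoneally at 35 to 50 mg/kg, and the dentate gyrus was dissected 6 h after status epilepticus had reached severity 5 on a modified Racine scale, or 6 h after saline, and hybridized with 1 animal per array. The other 11 arrays come from KO mice (Srf f/f;CaMKCreERT2) with the same treatments, 5 with KA and 6 with saline. In these a tamoxifen-activated Cre, driven by the CaMKII alpha promoter, removes Srf from excitatory forebrain neurons only. They served here to estimate the spread and to set the CTR response against that of KO mice.

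Kainic acid is an agonist of kainate-type glutamate receptors, and systemic doses drive the hippocampus into prolonged seizures. The dentate gyrus is the entry station of the hippocampus, and its main cell is the granule cell, which fires sparsely at rest and strongly during seizures. Calcium that enters active neurons switches on immediate-early genes, many of which encode transcription factors, and these are followed over hours by late-response genes whose products are secreted or act at synapses. Astrocytes, microglia and vessels respond to seizures as well, and all of these cells contribute RNA to a dissected dentate gyrus.

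The deposited values are log2 signals between 6.69 and 16.12, with array medians between 7.86 and 7.91. Of 18 granule cell markers 4 lay below the array median in both groups. Among the others, C1ql2, a secreted synaptic organizer, had a median log2 signal of 15.49 after saline, and Prox1, which specifies granule cells, 12.22. The mean of a list is given as the log2 of its mean unlogged signal, to which the brightest members contribute most. In the saline arrays it was between 12.02 and 12.35 for the granule cell markers. For 20 markers of pyramidal and mossy cells it was similar, between 11.88 and 12.23, and 1 of these lay below the array median. Srf, the flanked gene, had log2 signals of 11.73 to 12.22 in the KA and 12.28 to 12.62 in the saline group of CTR mice, against 10.95 to 11.41 in KA and 11.20 to 11.59 in saline KO mice, so no CTR array lay in the range of the KO arrays. Arrays are named here by the titles of the normalized values. The headings of the raw table go against them, since 14 of 22 raw columns matched an array of another group, and a wrong replicate number within a group would not be seen. Principal components were taken over only those probes that varied most among the 11 CTR arrays, a choice that favors a large first component. The first held 72.5% of the variance of these probes and separated the 5 KA from the 6 saline arrays. Over the probes brighter than the median signal, an array of the KA group correlated with the others of its group at a mean r between 0.960 and 0.967. Within the saline group the mean r was between 0.981 and 0.991.

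A gene is represented by its probe with the highest mean signal over the 11 CTR arrays, and it was called where the difference exceeded 1.5-fold at an adjusted p under 0.05 in limma. By this rule 1957 genes rose after KA (8.92% of 21946) and 1857 fell (8.46%), with a median log2 difference of −0.0059 over all genes. At the level of probes, 3407 rose (7.37% of 46237) and 2601 fell (5.63%). The rises reached further than the falls. More than 2-fold changes were found for 879 rising and 634 falling genes, more than 4-fold for 175 and 29, more than 8-fold for 51 and 1, and more than 16-fold for 17 and 0. The median fold was 1.91 among genes that rose and 1.82 among those that fell. For 3867 genes (17.6%) the 5 KA arrays lay wholly above or wholly below the 6 saline arrays, and of the called genes this held for 1571 that rose and 1394 that fell.

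**Figure D1:**
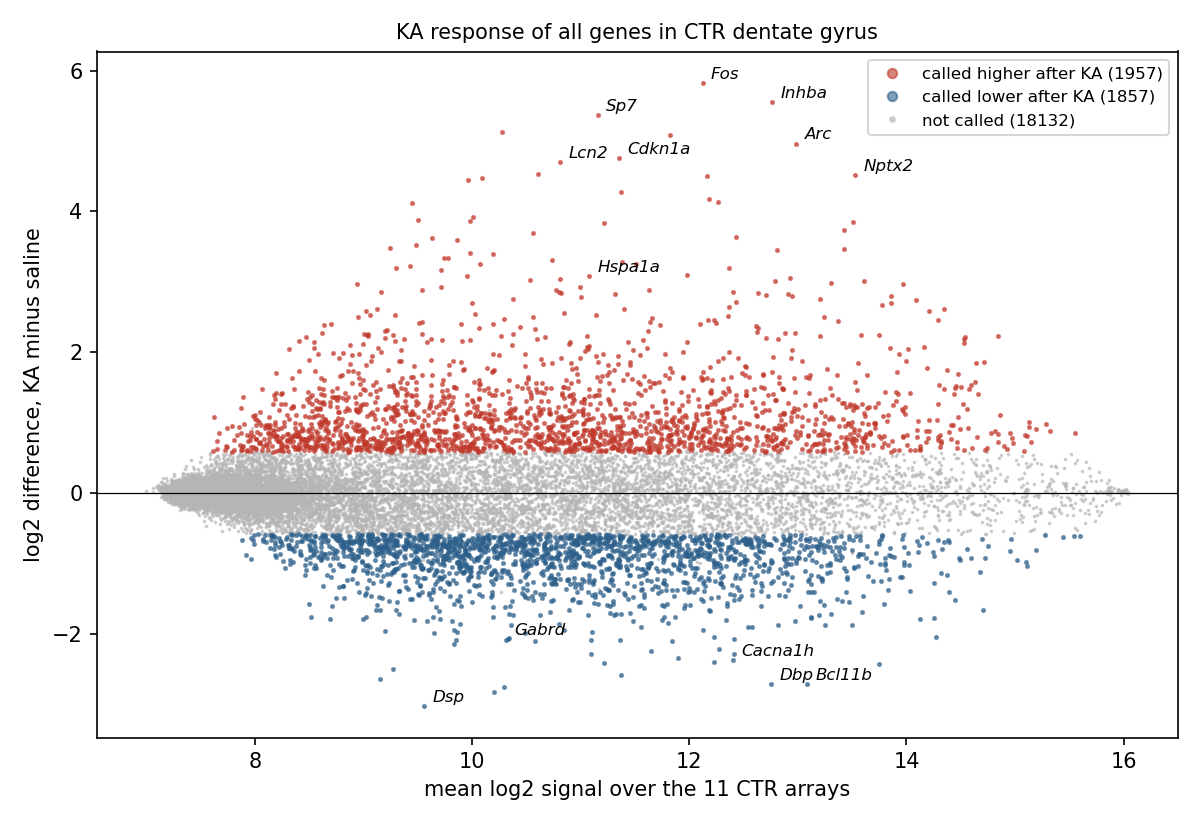
Log2 difference between KA and saline against the mean log2 signal over the 11 CTR arrays, with 1 point for each of 21946 genes. Red points are the 1957 genes called higher and blue points the 1857 called lower after KA; the rises reach 5.83 (Fos) and the falls −3.03 (Dsp), and differences narrow where the mean signal nears either end of the scale.

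The 12 genes with the largest rise were Fos, Inhba, Sp7, Fndc9, Fosb, Arc, Cdkn1a, Lcn2, Socs3, Nptx2, Sult2b1 and Ccl4. Fos, a bZIP partner of Jun, had log2 signals of 15.06, 14.90, 15.43, 15.91 and 15.21 in the KA arrays, while the saline arrays ran from 8.84 over a median of 9.44 to 10.03. The groups were more than 4 log2 units apart at their nearest, and the rise was 56.8-fold (log2 difference 5.83, SE 0.28, adjusted p = 4.0e-13). Inhba, the beta A subunit of activin, had 15.85, 15.84, 15.95, 15.78 and 15.54 after KA, against a lowest, median and highest value of 9.64, 10.11 and 10.89 after saline (46.9-fold, adjusted p = 5.3e-14). Its KA values lay close to the upper end of the scale, where a further rise cannot be seen, and the same held for Arc and Nptx2. Sp7, a zinc finger factor best known from bone formation, had 14.56, 13.20, 14.59, 14.00 and 14.08 after KA, against 7.94, 8.85 and 9.15 after saline (41.3-fold, adjusted p = 2.7e-11).

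Fndc9, a protein with a fibronectin type III domain, had 12.61, 12.95, 13.21, 14.00 and 12.57 after KA, against a lowest, median and highest of 7.56, 7.98 and 8.18 after saline, which is near the array median of 7.88 (34.9-fold, adjusted p = 9.6e-14). Sult2b1, a sulfotransferase of cholesterol and other hydroxysteroids, was well above that level in saline mice, with 9.89, 10.11 and 10.29, and had 15.25, 14.59, 14.45, 14.25 and 14.53 after KA (22.6-fold, adjusted p = 4.8e-15). In both genes the KA and saline arrays were far apart. By the adjusted p, the most clearly risen gene was Sap30, a subunit of the Sin3 histone deacetylase complex. Its log2 signals were 13.79, 13.75, 13.91, 14.22 and 13.85 after KA and 11.07, 11.20 and 11.33 (lowest, median and highest) after saline, a rise of 6.53-fold with an SE of 0.08 (adjusted p = 3.2e-16). Srxn1, the enzyme sulfiredoxin that restores oxidized peroxiredoxins, was listed among the 5 lowest, with 13.3-fold (log2 difference 3.73, SE 0.14, adjusted p = 4.8e-15). Arc, Nptx2, Sult2b1 and Mapk6 had the same adjusted p. Of these tied genes the larger folds were listed first, which left out Mapk6.

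**Figure D2:**
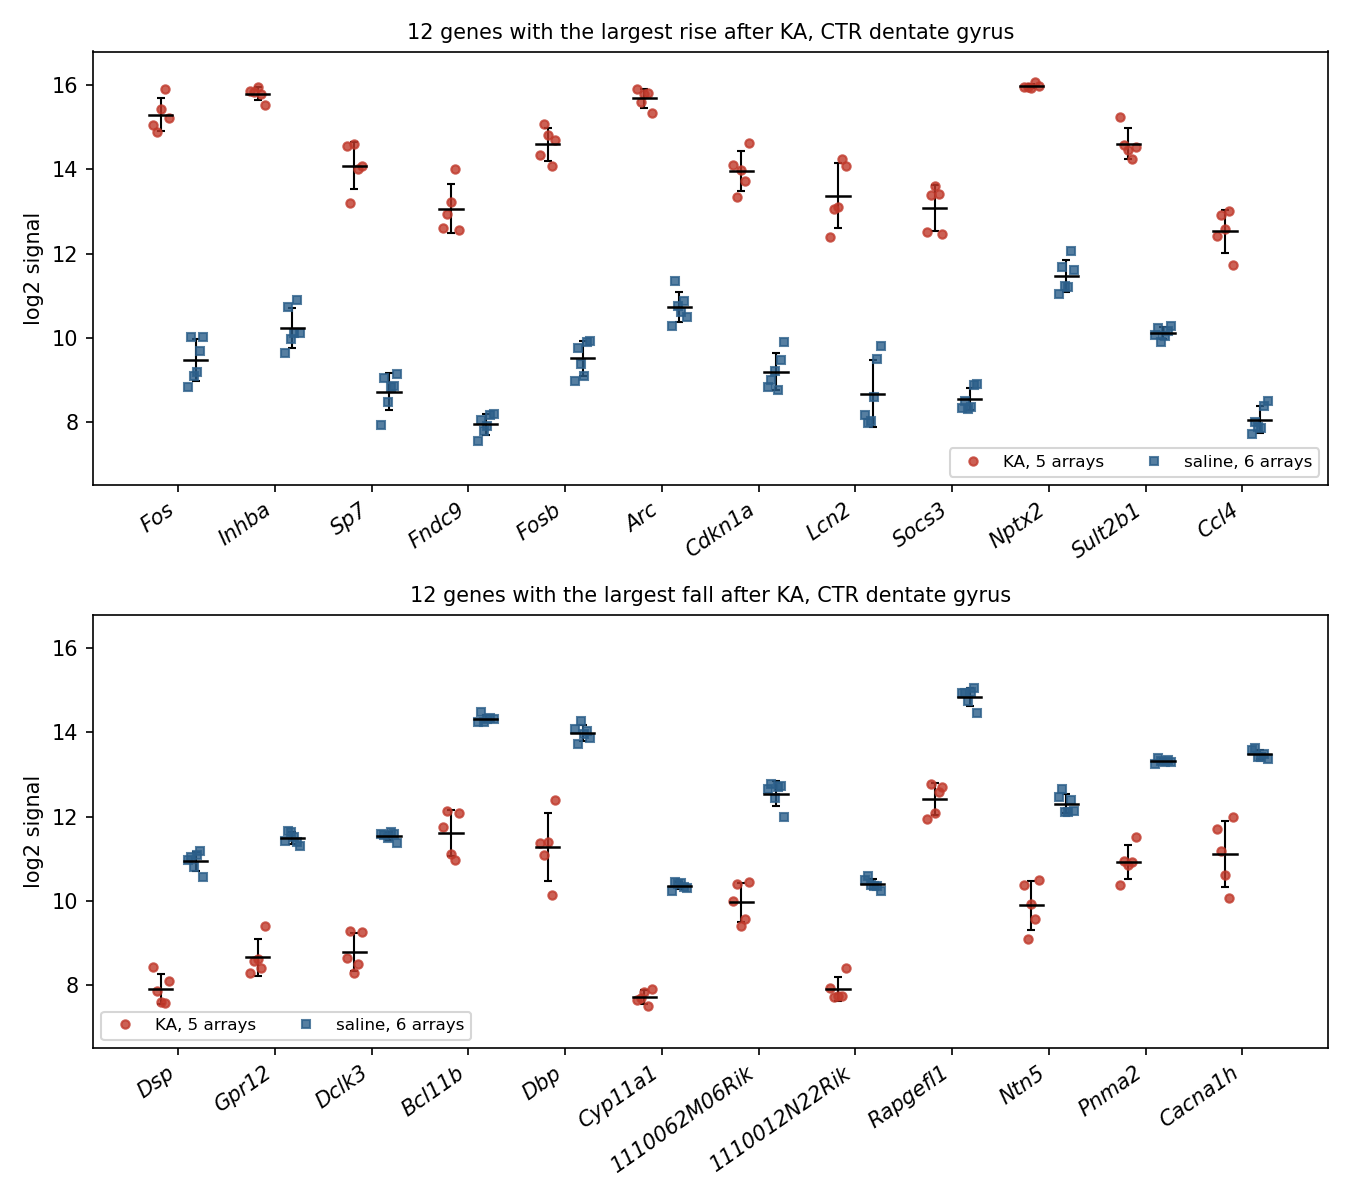
Log2 signal in each of the 5 KA arrays (red circles) and the 6 saline arrays (blue squares) for the 12 genes with the largest rise (top) and the 12 with the largest fall (bottom) in CTR dentate gyrus; black lines are the mean and bars the SD. In each of these 24 genes the KA and saline arrays do not overlap, and the KA points of Inhba, Arc and Nptx2 lie between 15.35 and 16.07, near the top of the scale.

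Among transcription factors of the immediate-early class, 25 of 35 measured members rose and none fell (median log2 difference 1.29). Without KA array 3, 1 member was called lower. After Fos and Fosb, an AP-1 partner with a rise of 34.0-fold, the largest were Atf3, a stress-induced bZIP factor (21.7-fold, log2 difference 4.44, SE 0.25), Csrnp1, a nuclear protein induced by axin (18.1-fold, log2 difference 4.17, SE 0.18), and Npas4, a factor of active neurons (15.1-fold, log2 difference 3.92, SE 0.35). Npas4 varied most among these, with 13.99, 10.52, 12.15, 11.55 and 12.53 in the KA arrays, all above the highest saline value of 8.70. Egr1, a zinc finger factor that was already bright in saline mice at a median of 13.51, had 15.70, 15.71, 15.87, 15.88 and 15.59 after KA and thus reached the end of the scale (4.64-fold, adjusted p = 5.3e-14). Some members of the class were not called, among them Ier5l (log2 difference −0.37, adjusted p = 0.27) and Ier2, whose signals of 7.34 to 7.59 after KA and 7.29 to 7.85 after saline were below the array median in every array.

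Late-response genes had the highest share of any list, 31 of 36 measured members, with none lower and a median log2 difference of 1.66. Beside Inhba they were led by Arc, which carries AMPA receptors away from synapses (31.2-fold, log2 difference 4.96, SE 0.18, adjusted p = 4.8e-15), and Nptx2, a secreted pentraxin that clusters AMPA receptors. Nptx2 had 15.96, 15.97, 15.93, 16.07 and 15.98 in the KA arrays, against a lowest, median and highest of 11.04, 11.42 and 12.06 in the saline arrays (22.8-fold, adjusted p = 4.8e-15). Acan, the core protein of aggrecan in perineuronal nets, was near the array median after saline, at 7.29, 7.57 and 7.83, and had 10.63, 11.33, 12.65, 12.46 and 11.38 after KA (17.3-fold, adjusted p = 1.6e-10). Bdnf, the brain-derived neurotrophic factor, rose 6.49-fold (log2 difference 2.70, SE 0.16). Homer1, a scaffold of group I metabotropic glutamate receptors, passed the adjusted p (0.0011) and not the fold threshold, at 1.48-fold. Its KA arrays, between 12.50 and 13.20, all lay above its saline arrays, between 12.02 and 12.42.

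The genes of feedback inhibitors moved in the same direction, with 18 of 35 MAP kinase phosphatases and receptor feedback inhibitors higher, none lower and a median log2 difference of 0.76. In this list 1 member was called lower with array weights, with normexp or without KA array 5. Socs3, which blocks signaling by cytokine receptors, led them with 12.51, 13.39, 13.60, 13.42 and 12.47 after KA, against 8.31, 8.43 and 8.90 (lowest, median and highest) after saline (23.1-fold, adjusted p = 3.6e-11). Dusp4, a nuclear MAP kinase phosphatase, rose 9.15-fold (log2 difference 3.19, SE 0.17, adjusted p = 2.0e-12). Rgs4, which shortens signaling by Gq- and Gi-coupled receptors, rose 6.71-fold (log2 difference 2.75, SE 0.15, adjusted p = 4.5e-12).

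The promoters of the strongest responders were searched for binding letters of factors that respond to neuronal activity, in the 250 bases before each RefSeq start (build GRCm38.p6) and on both strands. Of 15469 genes with such a window, 18987 windows were searched. The cAMP response element TGACGTCA, the site of CREB, was found in 2.03% of all windows, in 3.85% of those of genes that rose, in 5.03% of those of genes that rose more than 4-fold and in 1.24% of those of genes that fell. The CArG box, the site of SRF, was found in 1.29% of all windows, in 1.55% of windows of genes that rose, in 3.91% for a rise of more than 4-fold and in 1.34% for genes that fell. For the AP-1 site TGAGTCA the shares were 4.03%, 4.01%, 6.15% and 2.90% in the same order, and for the E-box CACGTG 6.98%, 9.03%, 5.59% and 9.13%. The Egr site GCGTGGGCG was in 0.774% of all windows and in 1.23% of those of genes that rose, and the heat shock element was in 0.374% of both. Windows of 1 gene with several starts overlap and are not independent. Of the 7 windows with a CArG box among genes that rose more than 4-fold, 4 belong to Egr2, so the 7 windows stand for 4 genes. Each match describes letters and is not a measured site.

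Of the 175 genes that rose more than 4-fold, 126 had a window. In these windows 9 genes had a CRE and 4 a CArG box, and none had both. Sites farther from the start were not searched. The windows of Fos and Npas4 held no CArG box. For both genes the paper reports SRF binding at CArG boxes that it places farther upstream than these windows reach. A gene without a match here can thus still have such a site. The windows of 3 CArG genes are shown first and those of 4 CRE genes after them, because CREB and SRF are activated by neuronal activity and Srf is the flanked gene. All letters run 5′ to 3′ on the strand of the gene, and capitals mark the CArG box or the CRE. Rnd3, which disassembles actin stress fibers, has its CArG box 91 bases before the start (chr2:51149112-51149361, minus strand). Egr2, a zinc finger factor, has several annotated starts and is shown with the window at chr10:67537316-67537565 (plus strand), and Zfp36, a protein that speeds decay of AU-rich mRNA, with chr7:28379229-28379478 (minus strand). The box shown for Zfp36 is not the one at which the paper reports SRF binding, which it places downstream of the start.
Rnd3: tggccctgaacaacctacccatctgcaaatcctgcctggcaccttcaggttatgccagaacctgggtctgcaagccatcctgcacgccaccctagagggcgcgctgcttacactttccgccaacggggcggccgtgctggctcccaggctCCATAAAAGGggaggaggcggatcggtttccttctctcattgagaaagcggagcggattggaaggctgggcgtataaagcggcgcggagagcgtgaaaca
Egr2: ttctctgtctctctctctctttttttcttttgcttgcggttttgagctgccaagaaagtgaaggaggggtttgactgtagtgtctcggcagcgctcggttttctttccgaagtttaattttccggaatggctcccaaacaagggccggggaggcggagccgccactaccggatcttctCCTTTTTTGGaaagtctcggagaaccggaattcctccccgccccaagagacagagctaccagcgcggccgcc
Zfp36: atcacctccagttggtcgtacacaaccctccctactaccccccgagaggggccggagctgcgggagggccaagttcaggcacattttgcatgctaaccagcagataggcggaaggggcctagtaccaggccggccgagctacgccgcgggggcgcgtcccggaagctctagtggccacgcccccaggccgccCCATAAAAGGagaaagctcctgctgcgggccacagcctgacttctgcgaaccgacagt
The CRE genes are Plk2, a polo-like kinase of active synapses (chr13:110394794-110395043, plus strand), Sstr2, a somatostatin receptor (chr11:113619077-113619326, plus strand), Dusp1, a MAP kinase phosphatase (chr17:26508473-26508722, minus strand), and Scg2, a granin of dense-core vesicles (chr1:79440027-79440276, minus strand).
Plk2: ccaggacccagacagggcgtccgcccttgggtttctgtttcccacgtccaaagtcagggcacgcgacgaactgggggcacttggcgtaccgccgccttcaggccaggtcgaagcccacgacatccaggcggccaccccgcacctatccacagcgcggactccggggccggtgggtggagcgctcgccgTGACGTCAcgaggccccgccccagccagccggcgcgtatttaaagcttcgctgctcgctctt
Sstr2: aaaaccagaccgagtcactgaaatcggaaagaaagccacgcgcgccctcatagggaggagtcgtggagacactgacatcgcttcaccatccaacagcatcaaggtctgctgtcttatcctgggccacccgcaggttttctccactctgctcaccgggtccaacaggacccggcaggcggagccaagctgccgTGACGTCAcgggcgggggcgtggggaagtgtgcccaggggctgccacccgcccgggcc
Dusp1: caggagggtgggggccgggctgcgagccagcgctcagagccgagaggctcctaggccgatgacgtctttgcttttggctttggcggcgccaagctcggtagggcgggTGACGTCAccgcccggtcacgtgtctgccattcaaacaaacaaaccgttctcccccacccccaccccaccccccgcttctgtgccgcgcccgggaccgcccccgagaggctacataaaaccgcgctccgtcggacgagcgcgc
Scg2: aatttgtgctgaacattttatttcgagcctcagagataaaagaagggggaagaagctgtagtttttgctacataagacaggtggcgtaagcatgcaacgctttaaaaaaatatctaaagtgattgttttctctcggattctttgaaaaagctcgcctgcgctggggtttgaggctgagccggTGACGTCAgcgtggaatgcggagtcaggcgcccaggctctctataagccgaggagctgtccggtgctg
After KA, Rnd3 had log2 signals of 12.73, 12.26, 12.89, 12.43 and 12.54, against a lowest, median and highest of 8.69, 8.86 and 9.15 after saline (12.9-fold, adjusted p = 7.0e-14). Zfp36 had 12.74, 11.34, 12.13, 12.16 and 12.51 after KA, against 8.74, 9.13 and 9.54 after saline (8.11-fold, adjusted p = 4.1e-11). Of the CRE genes, Sstr2 was the most even, with 14.10, 14.02, 14.29, 14.21 and 14.28 after KA and 11.18, 11.28 and 11.57 after saline (7.15-fold, adjusted p = 8.7e-14). The rises of Egr2 (log2 difference 3.17), Plk2 (8.09-fold), Dusp1 (6.23-fold) and Scg2 (6.12-fold) likewise left no overlap between KA and saline arrays.

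Genes of inflammation were among the strongest single responders, while most of their class was not called. Of 38 chemokines, cytokines and interferon targets, 13 rose and 2 fell (median log2 difference 0.35), and 8 members were below the array median in both groups. Without KA array 2 the count of lower members was 4. Lcn2, the iron-siderophore binding protein lipocalin 2, had 12.40, 13.07, 13.12, 14.24 and 14.08 after KA and spread from 7.97 over 8.37 to 9.80 in the saline arrays (26.1-fold, adjusted p = 2.0e-10). Ccl4, a chemokine, had 12.43, 12.92, 12.58, 13 and 11.72 after KA, against 7.71, 7.94 and 8.51 after saline (22.2-fold, adjusted p = 1.2e-11). Il11, a cytokine that signals through gp130, rose 11.5-fold (log2 difference 3.53, SE 0.35). The 2 members that fell were Cxcl12, the ligand of CXCR4 (3.02-fold lower, adjusted p = 2.7e-07), and Csf1, a growth factor of microglia (log2 difference −0.66).

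Chaperone genes of the cytosol and of the endoplasmic reticulum rose in many members. Of 35 cytosolic heat shock chaperones, 15 rose and 2 fell (median log2 difference 0.42). Bag3, a cochaperone of Hsp70 in autophagy, had 15.71, 15.35, 15.84, 15.33 and 15.81 after KA, against a lowest, median and highest of 11.38, 11.81 and 12.18 after saline (14.4-fold, adjusted p = 8.8e-13). Hspa1a, the inducible Hsp70, rose 8.46-fold with a wide spread that is given with the other uneven genes, and Hspb1, a small heat shock protein, rose 6.90-fold (log2 difference 2.79, SE 0.43). Hspa1a and its neighbor Hspa1b are near-identical copies, and their probes can share signal. Hspa2, an Hsp70 of germ cells and brain, fell 1.67-fold (adjusted p = 4.0e-06).

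In the unfolded protein response of the endoplasmic reticulum, 12 of 26 members rose and none fell (median log2 difference 0.58), led by Sdf2l1, a partner of the chaperone BiP (6.73-fold, log2 difference 2.75, SE 0.18). The count was 7 with the replicate number as a block. Hspa5, which encodes BiP, had 10.42, 11.34, 11.48, 12.14 and 10.38 after KA, all above its highest saline value of 9.76 (3.34-fold, adjusted p = 7.1e-06). Of 23 Atf4 targets and amino acid stress genes 8 rose and none fell (median 0.27), among them Chac1, which degrades glutathione (2.75-fold), and Atf4 itself (2.65-fold, adjusted p = 1.3e-05). Ddit3, the stress factor CHOP, was not called (log2 difference 0.32, adjusted p = 0.31). Of 33 genes of oxidative stress, heme and metallothioneins 3 rose (9.09%) and 2 fell (6.06%), shares near the 8.92% and 8.46% of all genes. Those that rose were Srxn1, the heme oxygenase Hmox1 (4.80-fold, adjusted p = 1.8e-10) and the metallothionein Mt2 (log2 difference 1.84). Leaving out KA array 1 or saline array 6 raised the count of rising members to 5, and leaving out saline array 2 lowered that of falling members to 1.

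Of 41 ribosome biogenesis and nucleolar genes, 20 rose and 1 fell (median log2 difference 0.49), with Rrp1b at 3.76-fold (log2 difference 1.91, SE 0.25), Nip7, a factor of the large subunit, at 3.36-fold (adjusted p = 6.3e-09) and Noc3l at 1.74 on the log2 scale. Bop1, the member that fell, was no longer called without any one of 6 arrays, among them KA array 4. Of 30 translation initiation factors and regulators 11 rose and 1 fell (median 0.48). Eif2b2, a subunit of the exchange factor of eIF2, rose 3.52-fold and Eif3b 2.77-fold, and Eef2k, the kinase that slows elongation, fell 2.47-fold (adjusted p = 4.1e-09). Of 19 cytosolic aminoacyl-tRNA synthetases 5 rose and none fell (median 0.21), led by Eprs (3.86-fold, adjusted p = 9.8e-12), and 3 rose after a second quantile normalization. Of 56 cytosolic ribosomal proteins 2 rose and 1 fell (median 0.05), below the share among all genes in both directions, but in 16 of them the saline mean left less than 1.5-fold to the upper end of the scale, where no rise could be called. Here 4 rose without KA array 4, KA array 5 or saline array 2, or with array weights.

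Of 31 proteasome subunits 5 rose and none fell (median log2 difference 0.24), with 0.93 for Psmd12 on the log2 scale. Only 2 of them were called after a second quantile normalization. Of 70 genes of the respiratory chain and ATP synthase none rose and 4 fell (median −0.09), with Sdhc, a subunit of complex II, at −0.85. Without KA array 4 or saline array 1 only 2 were called lower. With a second quantile normalization 9 were called lower, and 1 rose with normexp or without KA array 2 or KA array 5. Of 25 genes of glycolysis and glucose uptake, 6 rose and 2 fell (median 0.14). Adpgk, an ADP-dependent glucokinase, rose 7.61-fold (log2 difference 2.93, SE 0.19, adjusted p = 3.8e-11), whereas Pfkl, a phosphofructokinase subunit, fell by 1.25 on the log2 scale. Of 24 genes of sterol synthesis and uptake, 10 rose and 2 fell (median 0.41). Sqle, squalene epoxidase, had 13.59, 13.57, 13.80, 13.72 and 13.75 after KA, against a lowest, median and highest of 11.79, 12.16 and 12.33 after saline (2.96-fold, adjusted p = 8.1e-12), and Srebf2, the transcription factor of this pathway, rose 2.96-fold as well (adjusted p = 1.4e-10). Insig2, which retains this factor in the endoplasmic reticulum, fell 1.74-fold.

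Genes of growth arrest and DNA damage rose in 12 of 30 members and fell in 2 (median log2 difference 0.45). Without KA array 4 the count of lower members was 4. Cdkn1a, the cyclin-dependent kinase inhibitor p21, had 14.10, 13.33, 13.98, 13.73 and 14.62 after KA, against a lowest, median and highest of 8.76, 9.10 and 9.90 after saline (27.0-fold, adjusted p = 4.7e-13). Gadd45b, a stress sensor that takes part in DNA demethylation, rose 19.3-fold (log2 difference 4.27, SE 0.23). Of 27 Bcl2 family members and caspases 2 rose and 6 fell (median 0.0). Mcl1, a prosurvival member, rose 3.21-fold (adjusted p = 3.3e-10). Those that fell are proapoptotic or act in caspase activation. They included Bbc3, the BH3-only protein PUMA, with 8.14, 8.81, 8.87, 8.50 and 9.25 after KA against 10.66, 10.78 and 10.93 after saline (4.23-fold lower, adjusted p = 6.2e-11), and Casp9 (log2 difference −1.23). Bcl2l11, a BH3-only protein that was called higher (log2 difference 0.66), was not called without KA array 5, at 0.51.

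The 12 genes with the largest fall were Dsp, Gpr12, Dclk3, Bcl11b, Dbp, Cyp11a1, 1110062M06Rik, 1110012N22Rik, Rapgefl1, Ntn5, Pnma2 and Cacna1h. Dsp, the desmosomal plaque protein desmoplakin, had log2 signals of 8.42, 7.85, 7.61, 7.58 and 8.08 after KA, against a lowest, median and highest of 10.56, 10.998 and 11.18 after saline (8.17-fold lower, log2 difference −3.03, SE 0.17, adjusted p = 6.0e-12). After KA it thus lay around the array median, where a larger fall cannot be measured. The same held for Cyp11a1, the enzyme of the first step of steroid synthesis, with 7.64, 7.69, 7.84, 7.49 and 7.91 after KA against 10.23, 10.37 and 10.45 after saline (6.23-fold lower, adjusted p = 5.3e-14). Gpr12, an orphan G protein-coupled receptor, had 8.30, 8.58, 8.62, 8.40 and 9.41 after KA and 11.31, 11.47 and 11.66 after saline (7.11-fold lower, adjusted p = 1.4e-11).

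Bcl11b, a zinc finger factor of postmitotic granule cells also known as Ctip2, was bright in saline mice, at 14.24, 14.33 and 14.47 (lowest, median and highest), and had 11.75, 12.12, 11.10, 10.96 and 12.09 after KA (6.58-fold lower, adjusted p = 7.7e-11). Rapgefl1, a protein related to exchange factors of Rap, was likewise bright, with a median of 14.94 after saline, and fell 5.38-fold (adjusted p = 1.1e-10). Dclk3, a doublecortin-like kinase, fell 6.74-fold (log2 difference −2.75, SE 0.19). The falls with the lowest adjusted p were those of 1110012N22Rik (5.63-fold, SE 0.10, adjusted p = 4.4e-14), Cyp11a1, Tubgcp2, a component of the gamma-tubulin complex (5.10-fold, adjusted p = 5.3e-14), Acot5, an acyl-CoA thioesterase (3.38-fold, adjusted p = 1.0e-12), and Dsp. In Acot5 all KA arrays, between 7.39 and 7.67, were below the array median. Since whole dissected tissue was hybridized, fewer cells of a type and less RNA per cell cannot be told apart in any of these falls.

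Genes of ion channels fell more often than they rose. Of 32 sodium, calcium and HCN channel subunits, 9 fell and 2 rose (median log2 difference −0.05). Cacna1h, the T-type calcium channel Cav3.2, had 11.70, 11.18, 10.60, 10.06 and 11.997 after KA, against 13.36, 13.45 and 13.62 (lowest, median and highest) after saline (5.17-fold lower, adjusted p = 3.5e-08). Scn3a, a voltage-gated sodium channel, fell 2.88-fold (adjusted p = 4.0e-08), and Cacng3, an auxiliary subunit of AMPA receptors, rose by 1.68. Of 55 potassium channel subunits 14 fell and 6 rose (median −0.12). Kcns2, a silent subunit of Kv2 channels, had 8.49, 8.78, 8.50, 8.40 and 9.14 after KA and 10.58, 10.85 and 11.02 after saline (4.43-fold lower, adjusted p = 1.1e-08), whereas Kcnk1, a leak potassium channel, rose 2.87-fold (adjusted p = 9.8e-09).

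Receptors of glutamate fell in 5 of 21 members and rose in none (median −0.09). These were Grm5, a group I metabotropic receptor (2.51-fold lower, adjusted p = 4.4e-04), Grm7, a presynaptic metabotropic receptor (2.36-fold lower), Grik2, a kainate receptor subunit (2.14-fold lower, adjusted p = 1.6e-05), the AMPA receptor subunit Gria3 (log2 difference −1.06) and the NMDA receptor subunit Grin2b (−0.68), which lost the call without KA array 4. The falls of Grm5, Grm7 and Grik2 rest on a single probe each, since none of their other probes was called. A further Grm7 probe had the opposite sign, with means of 9.27 after KA and 8.94 after saline (log2 difference 0.33, adjusted p = 0.03). Gria2, the AMPA receptor subunit that limits calcium entry, was not called, with 13.90 to 15.08 after KA and 14.55 to 15.13 after saline (log2 difference −0.24, adjusted p = 0.37). Of 19 genes of GABA-A receptors and GABA handling, 2 fell and 2 rose (10.5% each, median 0.02), near the 8.46% and 8.92% of all genes. Gabrd, the delta subunit of extrasynaptic receptors, had 9.37, 9.38, 9.40, 8.65 and 9.06 after KA and 10.90, 11.25 and 11.63 after saline (4.23-fold lower, adjusted p = 1.3e-09). Slc12a5, the neuronal chloride extruder KCC2, fell 1.63-fold and lost the call without KA array 2 or KA array 4, at −0.53 and −0.60. Gad1, which makes GABA, rose 1.81-fold (adjusted p = 5.7e-06).

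Of 42 genes of synaptic vesicles and release 4 rose (9.52%) and 5 fell (11.9%), shares near the 8.92% and 8.46% of all genes (median −0.09). Syt4, a synaptotagmin of dense-core vesicles, had 15.17, 15.82, 15.998, 16.07 and 15.40 after KA, against 13.41, 13.57 and 13.71 after saline (4.36-fold, adjusted p = 4.4e-11). The number of lower members depended on the setting, with 8 under array weights, 10 after a second quantile normalization, 3 without KA array 4 and 9 without KA array 5, and without KA array 1 only 2 rose. Of 32 scaffolds and kinases of the postsynaptic density 5 rose and 6 fell (median −0.17), with rises of 4.42-fold for the scaffold Dlgap2 and a fall of 3.02-fold for Camk2g, a subunit of calcium/calmodulin kinase II.

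Neuropeptides, granins and processing enzymes of dense-core vesicles rose in 15 of 30 members, with 1 lower and a median log2 difference of 0.61. Vgf, a granin-like precursor, had 15.26, 15.32, 14.80, 15.94 and 15.24 after KA, against a lowest, median and highest of 11.47, 11.78 and 12.31 after saline (log2 difference 3.46, adjusted p = 5.5e-12). Npy, the precursor of neuropeptide Y, rose 3.19-fold (log2 difference 1.67, SE 0.15) and Pdyn, the precursor of dynorphins, 5.52-fold (adjusted p = 6.3e-11). The fallen member Nxph1, a ligand of neurexins, lost the call without any one of 5 arrays, among them KA array 2, and 2 members fell without KA array 5. Of 43 receptors of neuropeptides and monoamines 6 rose (14.0%) and 4 fell (9.3%), against 8.92% and 8.46% of all genes (median 0.05). In this list 13 were below the array median in both groups. Npy2r, a presynaptic receptor, had 8.32, 9.92, 9.64, 10.05 and 9.09 after KA, against 11.18, 11.41 and 11.52 after saline (3.97-fold lower, adjusted p = 3.3e-07), and Npy5r fell 2.34-fold (adjusted p = 3.2e-05). Oprl1, the nociceptin receptor, fell 3.45-fold (adjusted p = 8.4e-09).

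Clock genes moved in both directions, with 8 of 20 higher and 5 lower (median log2 difference 0.14). Per2, a repressor of the clock that cAMP signaling also induces, had 13.52, 14.22, 13.96, 14.07 and 13.79 after KA, against 11.44, 11.58 and 11.71 (lowest, median and highest) after saline (5.06-fold, adjusted p = 1.4e-12). Npas2 (log2 difference 1.67) and Per1 (1.10) rose as well. The members that fell included 3 output genes. Dbp, a PAR bZIP factor, had 11.37, 11.08, 11.39, 10.13 and 12.40 after KA and 13.72, 13.99 and 14.26 after saline (6.55-fold lower, adjusted p = 1.6e-07), its relative Tef fell 3.50-fold and Nr1d2, a nuclear receptor that represses clock genes, 2.86-fold. The times of day of the injections are not given in the sources used here, and their part in these values was not tested.

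Genes of structure and extracellular space rose more often than they fell in some lists and not in others. Of 46 genes of extracellular matrix, proteases and inhibitors 13 rose and 2 fell (median 0.28), with Timp1, an inhibitor of metalloproteases, at 12.1-fold (log2 difference 3.60, SE 0.30) after Acan. The count of lower members was 5 after a second quantile normalization, 4 with normexp or without KA array 1 and 1 without KA array 4. Of 63 axon guidance genes 5 rose (7.94%) and 10 fell (15.9%), against 8.92% and 8.46% of all genes (median −0.05). Ntn5, a netrin, had 10.38, 9.09, 9.93, 9.57 and 10.49 after KA, against 12.10, 12.26 and 12.66 after saline (5.34-fold lower, adjusted p = 5.3e-09), whereas Nrp1, a coreceptor of semaphorins and VEGF, rose 4.23-fold (adjusted p = 1.8e-10). Without KA array 3 the number of guidance genes that rose was 8. Of 54 growth factor, TGF-beta, Wnt and BMP ligands 11 rose and 8 fell (median 0.01), and with the replicate number as a block 5 fell. Gdnf, a neurotrophic ligand of the Ret receptor, rose 7.85-fold (adjusted p = 1.6e-08), and Chrd, the BMP antagonist chordin, fell 4.87-fold (adjusted p = 3.9e-08).

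Of the remaining lists, 7 of 35 genes of mRNA decay and translation repression rose and 2 fell (median 0.11), or 1 without KA array 2. Of 36 nuclear import and export factors 7 rose and 3 fell (median 0.19), and of 41 genes of transport between endoplasmic reticulum and Golgi 8 rose and 2 fell (median 0.31). In the last list 5 rose after a second quantile normalization, and 1 fell without any one of 6 arrays, among them KA array 4. Among 16 common reference genes 3 were called, all higher, namely Rplp0 (1.71-fold), Hprt (1.65-fold) and Pgk1 (log2 difference 0.70). Gapdh (log2 difference 0.12, adjusted p = 0.18) and Actb (0.32, adjusted p = 0.020, 1.25-fold) were not called. Hprt was not called after a second quantile normalization, at 0.49, and neither was Pgk1, which also lost the call without KA array 4, at 0.57. Lists share some members, so their counts are not independent.

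**Figure D3:**
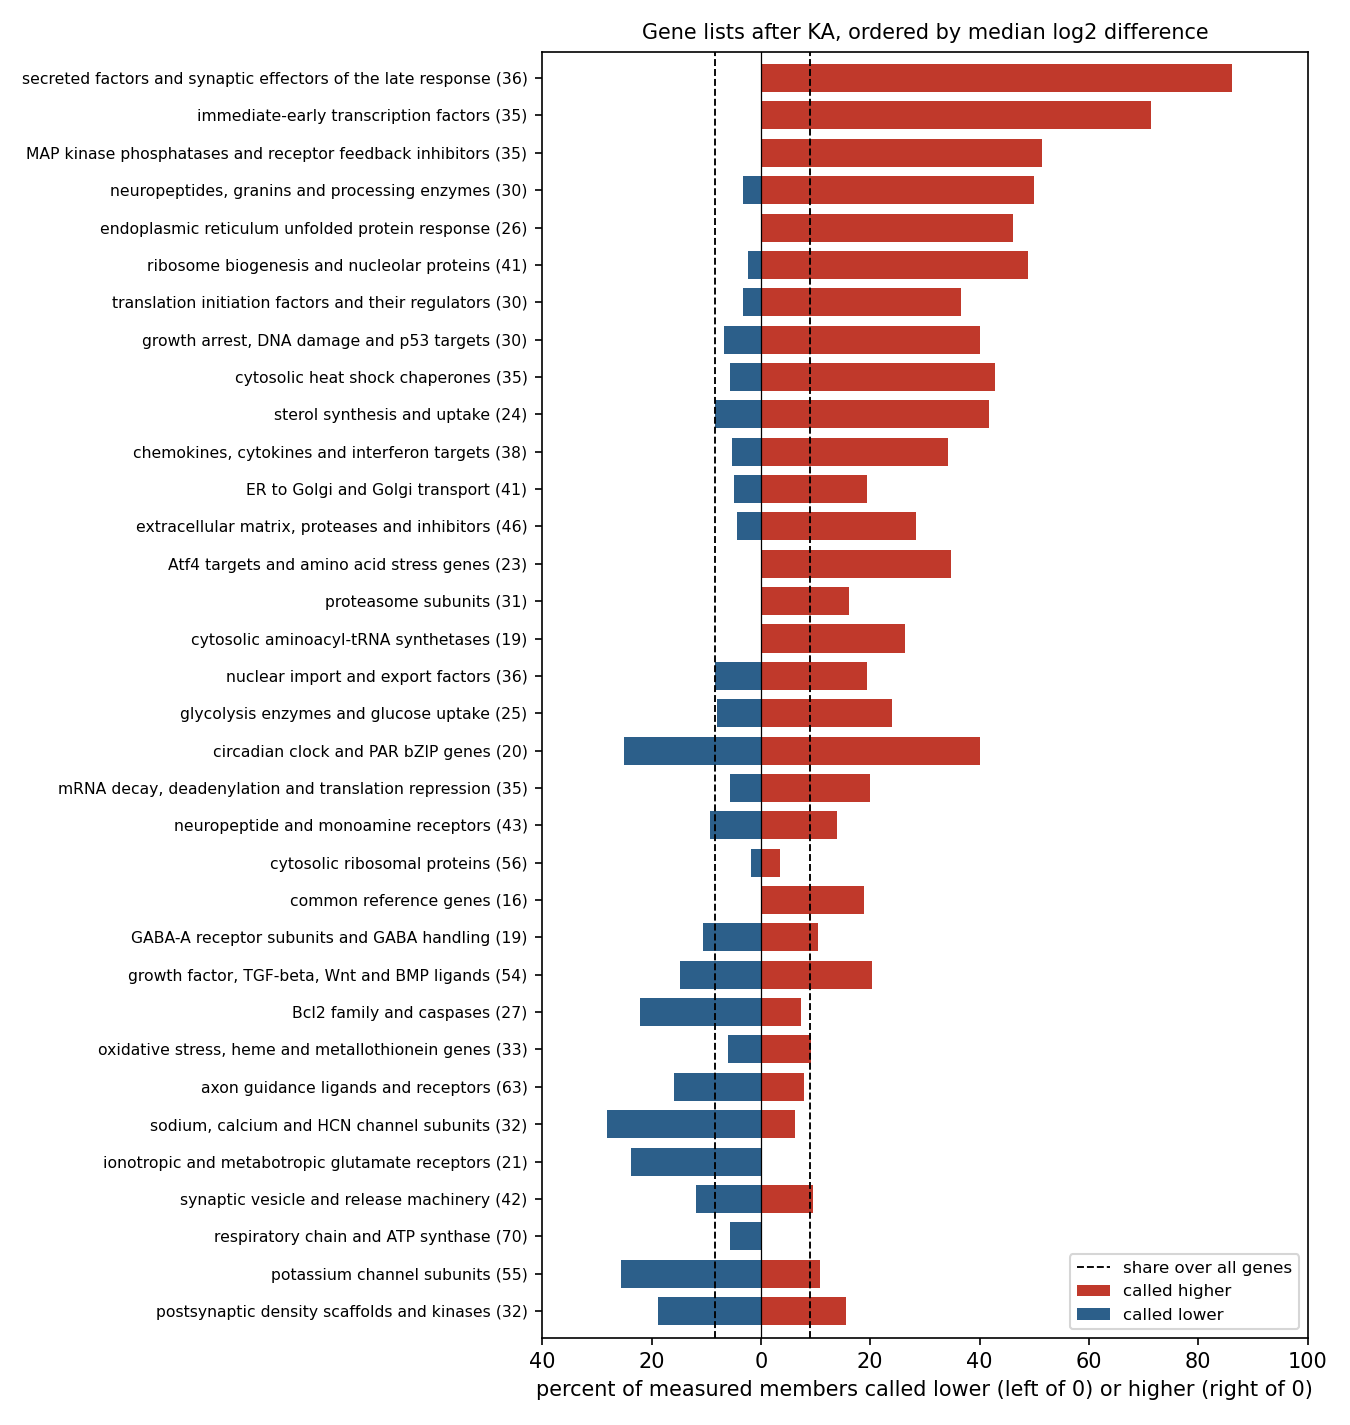
Percent of the measured members of each gene list that were called higher (red, to the right) or lower (blue, to the left) after KA in CTR mice, with the number of measured members in parentheses. Dashed lines mark the shares among all genes (8.92% higher, 8.46% lower); late-response genes reach 86.1% higher and sodium, calcium and HCN channel subunits 28.1% lower.

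In most cell type lists single markers were called, and several counts were near the shares among all genes, 8.92% higher and 8.46% lower. Among 18 markers of dentate granule cells 3 rose and 4 fell (median log2 difference −0.06). C1ql2 had 14.54, 13.07, 13.96, 13.23 and 14.19 after KA, against a lowest, median and highest of 15.24, 15.49 and 15.62 after saline (3.15-fold lower, adjusted p = 3.1e-07), and Dsp and Gabrd also fell, whereas Prox1 and Tdo2 rose. Prox1 overlapped between the groups, with 14.54, 12.42, 13.48, 12.04 and 15.11 after KA and 11.97, 12.22 and 12.35 after saline (2.51-fold, adjusted p = 0.0070), and it was not called in a fit of the CTR arrays alone, with or without the replicate number as a block. Of 19 markers of immature neurons and progenitors 2 rose and 5 fell (median −0.08). Sox11, a factor of young neurons, had 15.00, 15.07, 14.66, 15.26 and 14.66 after KA and 11.85, 11.93 and 12.06 after saline (7.90-fold, adjusted p = 6.5e-14), and Dcx, the microtubule protein doublecortin, fell 1.63-fold (adjusted p = 8.5e-06). Of 20 markers of pyramidal and mossy cells none rose and 2 fell (median −0.07), and 1 or 2 rose when any one of 7 arrays was left out.

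Astrocyte genes were listed as reactive and as general markers, with Gfap in both lists. Which cells of the dissected tissue held the RNA of these genes was not tested. Of 22 markers of reactive astrocytes 16 rose and none fell, with a median log2 difference of 1.49. The log2 of their mean unlogged signal was between 11.62 and 12.74 in the KA arrays and between 10.05 and 10.57 in the saline arrays. After Lcn2 the largest rises were those of Ptx3, a long pentraxin (14.7-fold, log2 difference 3.88, SE 0.36), and Timp1. Of 18 general astrocyte markers 2 rose (11.1%) and 1 fell (5.56%), near the shares of all genes (median 0.14). Gfap, the intermediate filament of astrocytes, had 14.31, 14.58, 14.31, 15.30 and 14.61 after KA, against 13.06, 13.28 and 13.63 after saline (2.48-fold, adjusted p = 8.7e-08), while Slc1a3, a glutamate transporter (log2 difference 0.14, adjusted p = 0.39), and the gap junction gene Gja1 (0.03, adjusted p = 0.87) were not called.

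Markers of microglia moved in both directions, with 4 of 23 higher and 6 lower (median −0.06). The log2 of their mean unlogged signal was 10.84 to 11.39 after KA and 10.87 to 11.20 after saline. Cd14, a receptor of bacterial lipopolysaccharide, had 11.48, 11.31, 11.77, 11.82 and 11.77 after KA, against 8.31, 8.56 and 8.76 (lowest, median and highest) after saline (8.43-fold, adjusted p = 4.4e-14). In contrast P2ry12, a purine receptor of resting microglia, had 9.36, 8.85, 9.19, 9.05 and 9.998 after KA and 10.62, 10.76 and 10.85 after saline (2.76-fold lower, adjusted p = 1.5e-07), and Cx3cr1, the fractalkine receptor, fell 1.64-fold. Of 19 interneuron markers 6 rose and none fell (median 0.16), and 4 of these 6, Npy, Tac1, Sst and Cck, are also in the list of neuropeptides. Cck was not called after a second quantile normalization. Of 19 oligodendrocyte markers none rose and 4 fell (median −0.06), or 2 without KA array 4, and Mbp, a myelin protein, was not called (log2 difference −0.06, adjusted p = 0.88). Of 20 endothelial and pericyte markers 2 rose and 3 fell (median 0.0).

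Of 12 blood and leukocyte markers only Mpo, the myeloperoxidase of neutrophils, was called (8.33%, near the 8.92% of all genes). Mpo had 9.94, 12.05, 12.21, 10.88 and 10.12 after KA, against a lowest, median and highest of 7.49, 7.86 and 8.11 after saline (9.13-fold, adjusted p = 1.6e-07). Of its other probes one was not called, at a mean of 7.69 after KA and 7.64 after saline, and the rest were called higher. Of 13 markers of choroid plexus and ependyma none was called (median −0.01). The log2 of their mean unlogged signal, to which the brightest members contribute most, varied between arrays. It ran from 9.29 to 12.68 in the KA and from 9.85 to 12.26 in the saline group. Ttr, the transthyretin of choroid plexus, had 12.31, 15.98, 12.16, 14.19 and 15.90 in the KA arrays and between 12.76 and 15.79 in the saline arrays.

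**Figure D4:**
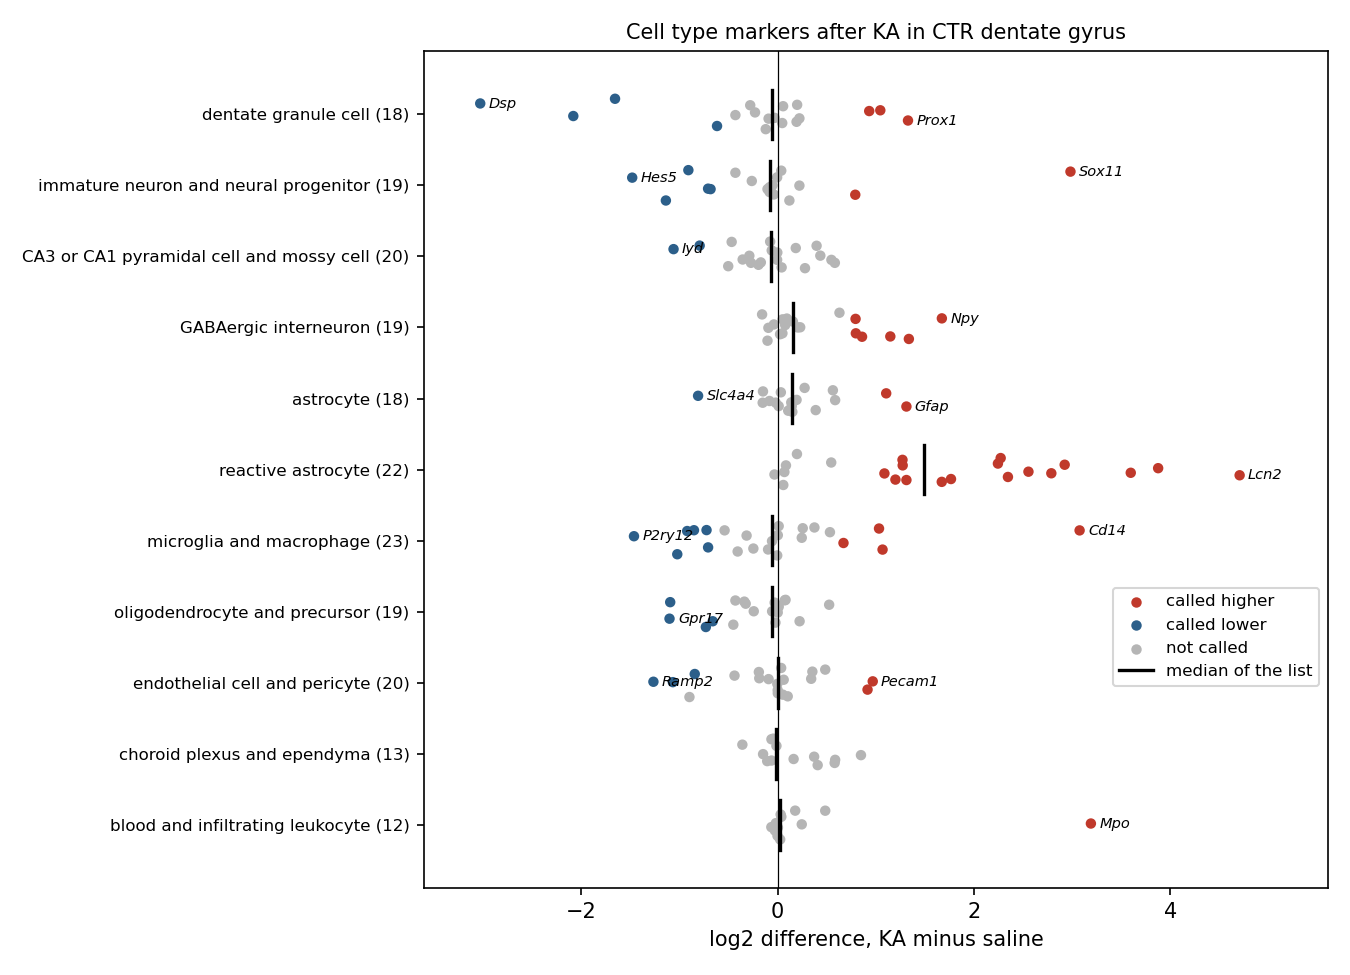
Log2 difference between KA and saline for each marker of 11 cell type lists in CTR dentate gyrus, with the number of measured markers in parentheses; red points were called higher, blue points lower, grey points were not called, and black lines are the medians of the lists. The median of reactive astrocyte markers is 1.49, and the other medians lie between −0.08 and 0.16.

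The arrays of KA mice differed more from each other than those of saline mice. The SD of a gene was larger after KA for 74.4% of all genes, for 92.0% of those that rose and for 88.3% of those that fell. The median SD on the log2 scale was 0.371 after KA and 0.152 after saline among genes that rose, 0.342 and 0.152 among those that fell, and 0.214 and 0.139 over all genes. The mean rise of the 879 genes more than 2-fold higher was similar in the 5 KA arrays, between 1.56 and 1.72 on the log2 scale. The mean fall of the 634 genes more than 2-fold lower was −1.30, −1.37, −1.44, −1.61 and −0.97 in KA arrays 1 to 5. The dose given to each animal is not stated in the sources used here, and its part in this spread was not tested.

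Among genes that rose more than 4-fold, the 5 with the largest SD after KA were 4930555G01Rik, Trh, Wdr92, Hspa1a and Drd4. Hspa1a had 10.35, 14.14, 13.23, 14.01 and 12.08 in KA arrays 1 to 5, against a lowest, median and highest of 9.41, 9.65 and 10.09 after saline (8.46-fold, SE 0.44, adjusted p = 7.2e-06). Trh, the precursor of thyrotropin-releasing hormone, had 11.81, 12.88, 9.67, 10.19 and 13.50, against 7.80, 7.86 and 8.30 after saline (12.3-fold, adjusted p = 5.1e-06). Drd4, the dopamine D4 receptor, had 12.26, 9.41, 8.74, 9.54 and 11.29, against 7.88, 8.01 and 8.13 after saline (4.72-fold, adjusted p = 1.2e-04). The order of the arrays thus differed between genes. Hspa1a was lowest in array 1, where Drd4 was highest, and Trh was highest in arrays 2 and 5, the arrays in which Ttr was highest too. The part of choroid plexus tissue in the Trh values was not tested. Wdr92, a WD repeat protein, had 10.62, 13.40, 10.86, 14.21 and 13.51 after KA and 9.74 to 10.11 after saline (5.79-fold, adjusted p = 1.1e-04). 4930555G01Rik, a member of a family of similar genes whose probes can share signal, was high in arrays 2, 3 and 4, at 10.99, 11.22 and 11.47, and lower in arrays 1 and 5, at 8.40 and 7.99 (5.30-fold, adjusted p = 2.5e-04). Its SD was 1.674 after KA and 0.105 after saline, and the other 4 genes also had a far larger SD after KA. The adjusted p-values of these 5 genes use a spread pooled over the groups and can be too small.

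The 5 genes with the smallest SD after KA at a rise of more than 4-fold were Arpp21, Nptx2, Noct, Mapk6 and Sstr2. Arpp21 and Nptx2 reached the end of the scale. Arpp21, a cAMP-regulated phosphoprotein that binds RNA, had 16.07, 16.02, 16.07, 16.06 and 16.09 after KA, against 13.53, 13.85 and 14.16 (lowest, median and highest) after saline (4.70-fold, adjusted p = 2.2e-11), and a small spread there cannot be told apart from a full scale. Mapk6, the atypical MAP kinase ERK3, lay well below that end, with 12.89, 12.78, 12.79, 12.97 and 12.69 after KA and 10.01, 10.18 and 10.42 after saline (6.11-fold, adjusted p = 4.8e-15). Noct, the clock-controlled phosphatase nocturnin, had 15.03, 15.02, 14.93, 14.83 and 15.05 after KA and 12.71, 12.91 and 13.13 after saline (4.16-fold, adjusted p = 6.3e-13). The genes of high signal whose 95% interval lay closest around 0 were Ubb-ps, Rpl38, Gm8355, Ppia and Atp5b, all with means between 16.002 and 16.029 in both groups, where the scale leaves little room for a rise.

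**Figure D5:**
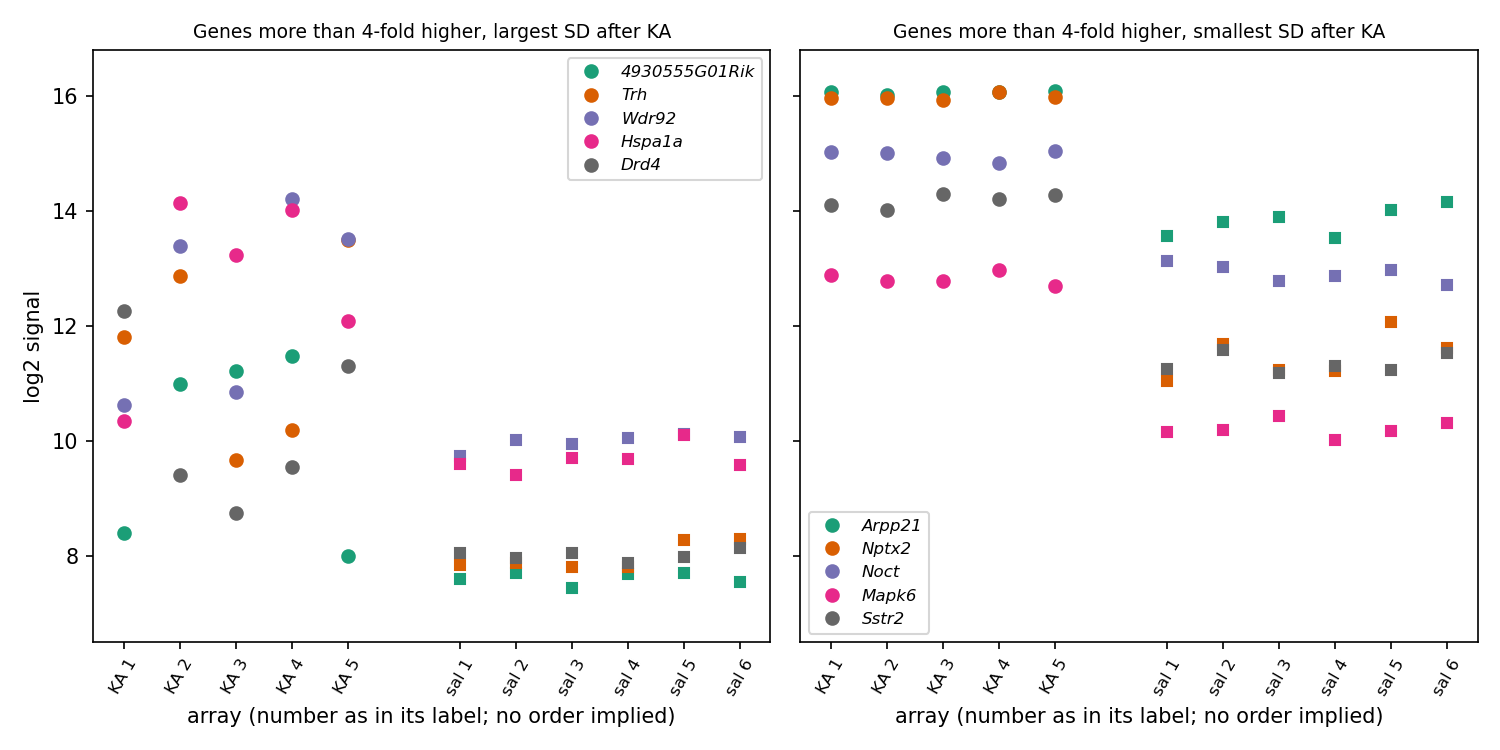
Log2 signal in each of the 5 KA arrays (circles, left in each panel) and the 6 saline arrays (squares, right) for the 5 genes with the largest SD after KA (left panel) and the 5 with the smallest SD (right panel) among genes that rose more than 4-fold. Hspa1a runs from 10.35 to 14.14 after KA, whereas Mapk6 runs from 12.69 to 12.97.

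The response of CTR mice was compared with that of KO mice through the interaction of genotype and treatment, CTR response minus KO response, which passed an adjusted p under 0.05 for 1284 genes (5.85%). Of the 1957 genes that rose in CTR mice, 1841 (94.1%) had a positive difference in KO mice too. A negative difference there was found for 1759 (94.7%) of the 1857 falling genes. The interaction passed for 633 of the rising genes (32.3%), with the larger rise in CTR mice in 624 and in KO mice in 9, and for 368 of the falling genes (19.8%), with the larger fall in CTR mice in each. Among the 175 genes that rose more than 4-fold it passed for 115 (65.7%), each with the larger rise in CTR mice. The 4 CArG genes and 7 of the 9 CRE genes with such windows were among them. These are small numbers beside a share of 65.7%, and a link between motif and interaction was not tested. The genes that rose or fell were chosen for a large response on the same CTR arrays, which favors a larger value in CTR than in KO mice.

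Of the 35 immediate-early transcription factors the interaction passed for 19, each with CTR above KO, and of the 36 late-response genes for 22, with CTR above KO in 21 and below in 1. It did not pass for Inhba (5.55 in CTR and 4.43 in KO mice, adjusted p = 0.059) or Nptx2 (4.51 in CTR mice, adjusted p = 0.25), both near the upper end of the scale after KA. For Npas4 the log2 difference was 3.92 in CTR mice and 0.28 in KO mice, where its adjusted p was 0.75 (interaction 3.65, SE 0.49, adjusted p = 8.0e-05). For Fos the differences were 5.83 in CTR and 2.36 in KO mice (interaction 3.47, adjusted p = 1.5e-05), and for Acan 4.12 in CTR and 0.89 in KO mice (interaction 3.23, adjusted p = 3.1e-05). Rnd3, with its CArG box, had 3.69 in CTR and 0.65 in KO mice (interaction 3.04, adjusted p = 4.4e-08). Dsp fell by 3.03 in CTR mice and did not pass in KO mice, at −0.09 with an adjusted p of 0.86 (interaction −2.94, SE 0.24, adjusted p = 1.8e-07). Cacna1h fell by 2.37 in CTR mice and did not pass in KO mice, at 0.21 with an adjusted p of 0.70 (interaction −2.58, adjusted p = 4.0e-05), and Bcl11b fell by 2.72 in CTR mice and had −0.42 in KO mice (interaction −2.30, adjusted p = 9.6e-06). No difference was detectable for Dbp (−2.71 in CTR and −2.71 in KO mice, interaction −0.01, SE 0.42), Ntn5 (−2.42 and −2.40, interaction −0.01, SE 0.30) and Sox11 (2.98 and 2.90, interaction 0.09, SE 0.18). Npy went the other way, with 1.67 in CTR and 2.52 in KO mice (interaction −0.85, adjusted p = 0.016).

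Probes of the same gene did not always give the same call. Of the called genes 1921 had several probes, and in 889 of these another probe was called in the same direction, in 9 in the opposite direction, and in 1025 no other probe was called, with 2 genes counted under both directions. In 371 of these 1025 all other probes lay below the array median in both groups. The other probes of Dsp, Cacna1h, Cyp11a1 and Wdr92 were dim, with group means between 7.31 and 8.27, and none was called. Some named genes had another probe above the array median that was not called either, with the same sign as the probe used. Among them were Insig2 (log2 difference −0.34, adjusted p = 0.13), Prox1 (0.44, adjusted p = 0.31), Pfkl (−0.41, adjusted p = 0.075) and Psmd12 (0.54, adjusted p = 0.0081). Arpp21 had 3 other probes called higher and Mapk6 had 1, beside dim ones that were not called. Of the probes without a gene name 362 were called higher and 213 lower.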

How the data were processed

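RNA of dissected dentate gyrus was measured on 22 BeadChip arrays (Illumina MouseWG-6 v2.0). The authors subtracted background, quantile normalized with BeadArray and took logs, and the deposited log2 values were used as given. The tool's version is not given in the sources used here. A deposited table of raw intensity was used only to compare its headings with the value table, since 6 of 22 headings matched the values and 16 did not, 14 of them by matching an array of another group. By the titles of the value table, Srf was at least 11.73 in CTR and at most 11.59 in KO arrays. Fos was at least 14.90 in CTR KA and at most 10.03 in CTR saline arrays. The raw headings were not tested in this way. Which table is mislabelled was not settled, so the replicate numbers behind the block and the left-out arrays are those of the value table only. No column belonged to another series. Of 46237 probes, 35784 had 1 gene symbol in the platform annotation, 0 had several and 10453 had none, and 937 symbols were updated to current names. Groups come from the sample titles.

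A model with 4 group means over the 22 arrays was fitted in limma 3.58.1 (R 4.3.3), with the contrasts of KA minus saline in CTR mice, the same in KO mice, and their difference. P-values were adjusted by Benjamini-Hochberg over all probes. They rest on 1 spread between mice per probe, pooled over the 4 groups, although KA arrays varied more than saline arrays. For genes with a large SD after KA, the SE and the adjusted p can therefore be too small. No fit with a separate spread per group was run. The number of arrays limits the precision. A probe was called at an adjusted p under 0.05 and more than 1.5-fold, and the interaction at an adjusted p under 0.05. In data simulated with 50 changed probes per fold size, 56% of 1.5-fold, 90% of 2-fold, 98% of 3-fold and 98% of 4-fold changes passed the adjusted p, with 3 false calls over 46237 probes. The simulation gave all 4 groups the same SD, changed only probes brighter than the median, and changed far fewer probes than were called here. The real KA arrays varied more, so neither the 3 false calls nor these percentages are rates for these data. Tables, promoter searches and plots were made in Python 3.11.15 with pandas 2.3.3.

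The groups to compare, the gene lists and their members were chosen with earlier results of these data known. The text names the 12 largest rises and falls, up to 3 called members per list and direction, the 5 most and 5 least variable genes that rose more than 4-fold, the 5 lowest adjusted p-values per direction, and the 5 steadiest bright genes. Csrnp1, Npas4, Egr1, Egr2, Bdnf, Dusp1, Pdyn, Gria3, Grin2b, Sst, Cck, Dcx and Cx3cr1 were named after their values were seen. Alternatives covered the arrays in the model, variance model, array weights, centring, normalization, background, a filter on dim probes, the fold threshold, the replicate number as a block and leaving out each CTR array. Results of 1 gene list are not reported here.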

Additional observations from a re-analysis of the deposited data

Results flagged for a closer look

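The most changed, most and least variable and most clearly changed genes were 37 in all. Of these, 22 had a KA response that differed between CTR and KO mice by the limma interaction at an adjusted p under 0.05. Over all genes the share was 5.85%. Those that did not pass included Inhba, Nptx2, Dbp, Ntn5, Gpr12, Cyp11a1 and Trh. The values of the 22 are the CTR response minus the KO response on the log2 scale. For genes that rose, the difference was 3.47 for Fos, 2.69 for Sp7, 1.98 for Fndc9, 2.42 for Fosb, 1.16 for Arc, 2.04 for Cdkn1a, 2.66 for Lcn2, 2.75 for Socs3, 1.31 for Sult2b1 and 2.23 for Ccl4. It was 2.72 for Hspa1a, 1.05 for Noct, 0.65 for Mapk6, 1.21 for Sap30 and 1.201 for Srxn1. For genes that fell, it was −2.94 for Dsp, −1.65 for Dclk3, −2.30 for Bcl11b, −1.79 for Rapgefl1, −0.76 for Pnma2, −2.58 for Cacna1h and −0.61 for Tubgcp2. In each of these the CTR response was the larger one, and the genes were chosen on the CTR arrays.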

How the results depend on the processing

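The counts of calls depended on the fold threshold. With no fold threshold 6055 probes were higher and 5021 lower, or 3211 and 3312 genes, and with more than 2-fold 1471 probes were higher and 831 lower, or 879 and 634 genes. Leaving out each CTR array in turn gave 3362 to 3523 probes higher and 2401 to 2886 lower, or 1924 to 2018 genes higher and 1705 to 2084 lower. A second quantile normalization gave 1673 genes higher and 2194 lower, so that 48.9% of the called probes were higher, against 56.7% as reported, and the cause was not tested. With the replicate number as a block, 3184 probes were higher and 2656 lower, or 1824 and 1872 genes. The samples share only a number, since same-numbered KA and saline arrays correlated at 0.08, −0.14, 0.14, 0.05 and −0.07 in their deviations from the group means. Of 222 called genes run under 20 alternatives each, 199 kept the call in all of them, 23 lost it in at least 1, and none changed sign. At an interaction adjusted p under 0.01, Pnma2, Hspa1a and Tubgcp2 no longer passed. Slide as a block was not run, since no file used here names the slides. Signals near either end of the scale limit what changes can be seen.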
